A study of Homo sapiens with 3 samples.

Results

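The set described here comprised 1099 intergenic peaks of BRG1 binding in 12Z, an established human cell line of endometriotic epithelium, here wild type. BRG1, encoded by SMARCA4, is the ATPase of the SWI/SNF chromatin remodelling complex. The series held 2 libraries of chromatin immunoprecipitated with an antibody to BRG1 (replicates 1 and 2) and 1 input library of chromatin taken without immunoprecipitation, all from untreated cells with no engineered change named in the labels. The input library's own values were not analysed here, so each peak is described by the authors' enrichment over background. The study's title concerns loss of SWI/SNF in the endometrial epithelium, and the peak lists used here come from wild-type cells only.

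The authors' overlap list held 6343 peaks, called shared peaks below, of which 6282 lay on chromosomes 1 to 22. Of these, 3780 lay on chromosome arms, outside fixed ranges around most centromeres and the short arms of the acrocentric chromosomes. No range was set on chromosomes 3, 6, 8 and 11, so peaks beside their centromeres could be members. A member was an arm shared peak whose midpoint lay outside every protein-coding gene body but within 100 kb of one, and whose edges lay more than 3 kb from every coding gene end. The rule used position alone. Its 1099 members made up 29.1% of arm shared peaks (95% Wilson interval 27.6 to 30.5%). The other arm shared peaks lay at gene ends (419), inside gene bodies (1580) or more than 100 kb from any coding gene (682). All 1099 members overlapped at least 1 peak of each replicate. Peak lists carry no expression values, so the epithelial identity of the cells could not be checked from them. Whether the replicates were separate cultures is not stated in the labels, and their agreement may be technical.

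SWI/SNF uses the energy of ATP to slide or evict nucleosomes and so opens DNA to transcription factors. In mammalian cells it is found at promoters and at enhancers, regulatory elements that often lie between genes and act over a distance. AP-1, a dimer of FOS and JUN family proteins, is known to bring SWI/SNF to enhancers in several cell types, and TEAD factors, the DNA-binding partners of the co-activators YAP and TAZ, often bind near AP-1. Long non-coding RNA (lncRNA) genes are transcribed without coding for protein, and many start at or near enhancers.

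Some members lay across the start of a lncRNA gene. RefSeq start windows, 300 bases running from 250 before to 50 after an annotated start on assembly GRCh38.p14, were searched on both strands for the AP-1 motif TGANTCA and the TEAD core GGAATG. Each window below lay wholly under a member and held 1 or both motifs. Other windows did so too, among them those of MYOSLID-AS1, ITPR2-AS2 and LASTR, and are not shown. The windows shown were chosen after their values were seen and need not be typical. Each runs 5′ to 3′ on the strand of its lncRNA, with motif matches in capitals. A match on the opposite strand appears as CATTCC for the TEAD core. In LOC124902257 the TEAD core and the first AP-1 match overlap, so that their capitals form 1 run.
LOC105375171: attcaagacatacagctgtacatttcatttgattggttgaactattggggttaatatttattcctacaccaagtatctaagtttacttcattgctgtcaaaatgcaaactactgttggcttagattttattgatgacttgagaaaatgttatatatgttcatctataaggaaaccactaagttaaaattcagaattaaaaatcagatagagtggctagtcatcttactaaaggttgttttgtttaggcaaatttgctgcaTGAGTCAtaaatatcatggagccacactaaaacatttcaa
TGILR: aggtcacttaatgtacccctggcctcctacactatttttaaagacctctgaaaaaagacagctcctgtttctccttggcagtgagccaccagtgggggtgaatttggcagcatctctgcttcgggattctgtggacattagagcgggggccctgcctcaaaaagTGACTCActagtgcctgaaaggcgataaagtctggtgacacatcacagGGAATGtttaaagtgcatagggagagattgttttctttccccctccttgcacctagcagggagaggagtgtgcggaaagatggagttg
LOC124901448: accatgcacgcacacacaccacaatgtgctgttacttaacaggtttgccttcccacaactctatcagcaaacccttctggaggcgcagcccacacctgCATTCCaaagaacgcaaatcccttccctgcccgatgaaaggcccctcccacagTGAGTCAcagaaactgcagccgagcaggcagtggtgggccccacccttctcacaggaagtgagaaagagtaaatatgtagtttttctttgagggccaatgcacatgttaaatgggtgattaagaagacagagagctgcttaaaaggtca
LOC124902257: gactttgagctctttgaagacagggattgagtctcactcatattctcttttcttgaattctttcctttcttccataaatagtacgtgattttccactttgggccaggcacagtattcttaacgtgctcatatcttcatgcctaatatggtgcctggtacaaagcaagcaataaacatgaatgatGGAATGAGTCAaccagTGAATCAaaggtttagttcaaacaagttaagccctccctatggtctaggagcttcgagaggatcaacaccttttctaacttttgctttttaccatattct
LINC02998: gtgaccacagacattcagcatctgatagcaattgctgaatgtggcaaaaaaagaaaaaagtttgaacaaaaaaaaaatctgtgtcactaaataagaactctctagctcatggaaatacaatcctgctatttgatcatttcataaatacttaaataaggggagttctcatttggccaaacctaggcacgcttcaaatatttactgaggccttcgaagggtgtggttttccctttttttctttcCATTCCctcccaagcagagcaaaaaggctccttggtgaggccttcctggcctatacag
MIR100HG: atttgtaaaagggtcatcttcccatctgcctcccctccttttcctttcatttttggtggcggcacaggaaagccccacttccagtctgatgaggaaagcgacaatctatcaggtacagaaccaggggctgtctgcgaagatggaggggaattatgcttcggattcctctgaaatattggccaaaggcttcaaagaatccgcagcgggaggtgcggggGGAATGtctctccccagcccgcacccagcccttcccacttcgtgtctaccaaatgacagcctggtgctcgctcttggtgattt

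The member over the start of LOC105375171 (minus strand) spanned chromosome 7, positions 17369741 to 17372938 in the authors' file, 25.2 kb downstream of AHR, the receptor for dioxins and related ligands. Its fold enrichment was 4.35 in replicate 1 and 4.42 in replicate 2. The member over TGILR (minus strand) spanned chromosome 6, positions 3911829 to 3913804, with folds of 4.49 and 4.17 in replicates 1 and 2. That over LOC124901448 (plus strand) lay at chromosome 6, positions 158852501 to 158855121, upstream of EZR, which links membranes to actin, with folds of 4.05 and 4.07. The median over all members was 3.87 in replicate 1 and 3.94 in replicate 2.

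The member over LOC124902257 (plus strand) lay at chromosome 9, positions 115156763 to 115157571, 39.0 kb upstream of TNC, which encodes the matrix protein tenascin C, with folds of 4.26 and 3.80 in replicates 1 and 2. The member over LINC02998 (minus strand) lay at chromosome 5, positions 54743906 to 54744579, 96.2 kb downstream of SNX18, with folds of 4.49 and 4.06. The member over MIR100HG (minus strand) lay at chromosome 11, positions 122100310 to 122101144, with lower folds of 3.73 and 3.65, both under the medians. MIR100HG is the host of a microRNA cluster that includes miR-125b.

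In all, 46 of the 1099 members (4.19%, Wilson interval 3.15 to 5.54%) overlapped the start windows of 47 lncRNA genes. The table of windows is not complete, so more starts may lie under members. Some of the 47 windows were covered only in part, as by 12 of 300 bases for LOC124902629 and 44 for LINC02535. They are counted below as under members, and a motif in them may lie outside the member. The AP-1 motif was present in 19 of the 47 windows (40.4%, Wilson interval 27.6 to 54.7%). It was present in 353 of 3314 lncRNA start windows that met the same position rule but lay under no peak (10.7%, 9.65 to 11.7%). These intervals do not overlap. Windows under a peak of replicate 1 alone held it in 15 of 34 cases (44.1%, 28.9 to 60.5%), and those under a peak of replicate 2 alone in 2 of 4. Of all 27303 start windows in the table, 7.76% held it, and of its 11461 lncRNA windows, 10.5%.

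The TEAD core was present in 15 of the 47 windows under members (31.9%, 20.4 to 46.2%), in 6 of 34 under a peak of replicate 1 alone (17.6%, 8.35 to 33.5%) and in 659 of 3314 under no peak (19.9%, 18.6 to 21.3%). The interval of the windows under members overlaps both of the others. The windows of LINC01836 and LOC101928450 lay under the same member and held the same TEAD match on opposite strands. That match counts for both, although the interval treats windows as independent. Of all start windows in the table, 14.05% held the TEAD core. The median GC content was 50.3% in the windows under members and 48.7% in those under no peak. Coding start windows under shared peaks at gene ends held the AP-1 motif in 16 of 75 cases (21.3%, 13.6 to 31.9%), against 5.75% of all 15842 coding windows. A motif match describes the letters of the window and does not show that a factor bound there. No test was run on these shares.

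**Figure D1:**
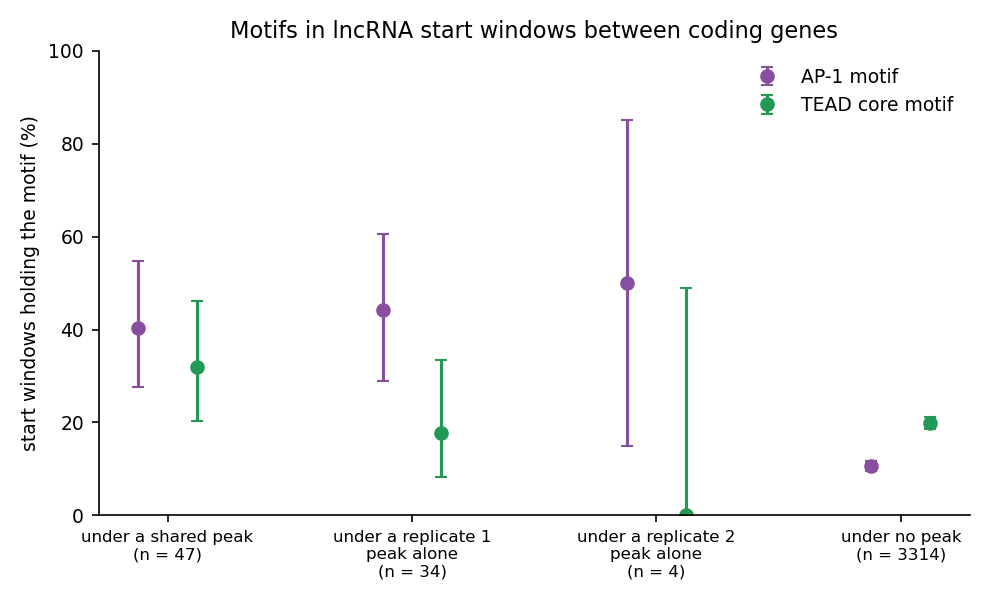
Share of lncRNA start windows between coding genes (%, vertical axis) that held the AP-1 motif or the TEAD core, by whether the window lay under a shared peak, under a peak of 1 replicate alone or under no peak. Points are shares and bars are 95% Wilson intervals. Windows only partly covered by a shared peak are counted as under it. The AP-1 share was 40.4% under shared peaks and 10.7% under no peak, while the TEAD intervals of these groups overlapped.

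MicroRNAs are short RNAs that pair with messenger RNAs mainly through their seed, bases 2 to 8. Of the hairpins in the table, 4 lay in a member or within 1 kb of one, those of MIR30A, MIR125B1, MIR4645 and MIR8078. The mature RefSeq sequences of MIR30A and MIR125B1 are shown because both belong to broadly expressed families, with the seed in capitals.
hsa-miR-30a-5p: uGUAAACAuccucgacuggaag
hsa-miR-30a-3p: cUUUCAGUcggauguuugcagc
hsa-miR-125b-5p: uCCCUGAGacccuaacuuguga
hsa-miR-125b-1-3p: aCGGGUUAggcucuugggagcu

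None of these seeds is shared between the arms shown. The hairpin of MIR30A lay inside a member at chromosome 6, positions 71402929 to 71405704, with folds of 4.02 in replicate 1 and 3.77 in replicate 2. That of MIR125B1 lay 466 bp from the member at the MIR100HG start. MIR8078 lay inside the weakest member of the set by fold in both replicates, 1.97 and 2.26, at chromosome 18, positions 112173 to 112517, near TUBB8B.

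More broadly, 343 members (31.2%, Wilson interval 28.54 to 34.01%) had their midpoint inside an annotated non-coding gene or pseudogene, which together covered 25.5% of the intergenic sequence that met the position rule. Of these, 314 lay in lncRNA genes. The covered share lies below the interval, which treats members as independent although neighbours are not.

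The authors' fold enrichment, a ratio of signal to background, had a median of 3.50 over members in the overlap list, with quartiles of 3.30 and 3.78. The lowest member stood at 2.01 and the highest at 5.93. Medians were 3.87 in replicate 1 and 3.94 in replicate 2. Median widths were 956 bp in the overlap list, 540 bp in replicate 1 and 347 bp in replicate 2. Ranks were only partly shared between replicates, with a Spearman correlation over the 1099 members of 0.43 for fold and 0.38 for −log10 q, where q is the authors' p-value adjusted for multiple testing. The correlation is given as a description, without a p-value. More than 1 replicate peak fell in a member in 80 cases for replicate 1 and 63 for replicate 2, and the peak of highest fold was then used.

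**Figure D2:**
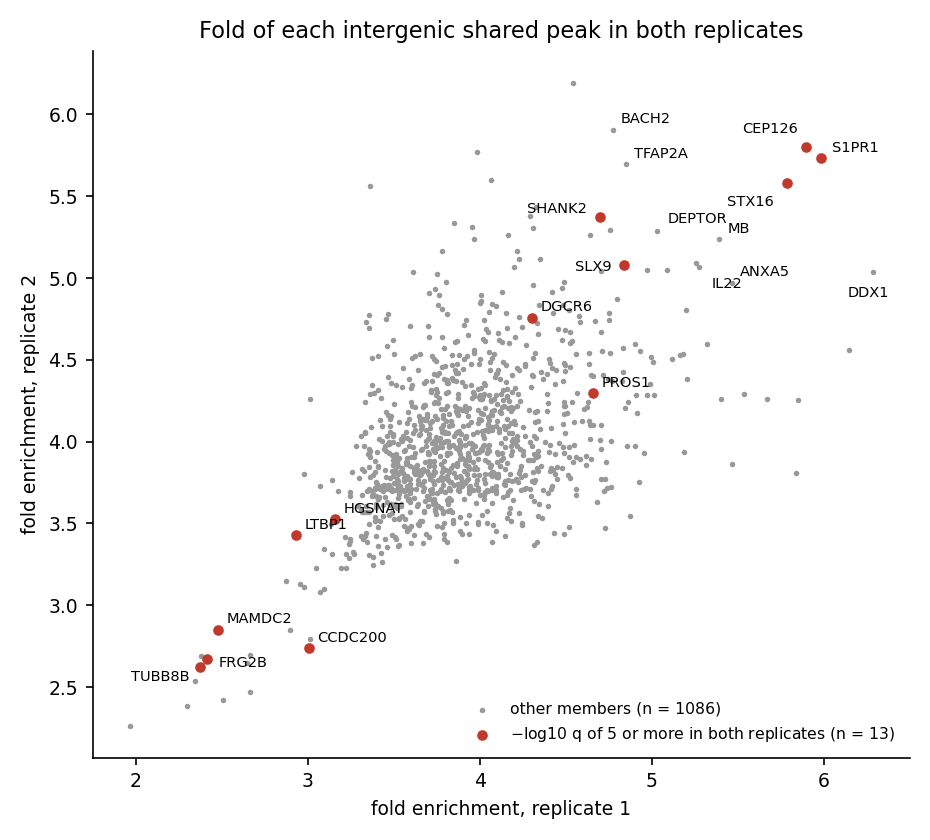
Fold enrichment of each of the 1099 members in replicate 1 (horizontal axis) and replicate 2 (vertical axis). Red points are the 13 members whose −log10 q reached 5 in both replicates. They fall both among the highest folds (CEP126, S1PR1, STX16) and among the lowest (TUBB8B, FRG2B, MAMDC2).

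Ranked by their fold percentile averaged over the replicate lists, the leading members lay near genes of varied function. First was a 585 bp peak at chromosome 11, positions 102011037 to 102011621, 10.3 kb downstream of CEP126, which encodes a centrosomal protein of the primary cilium. Its folds were 5.90 in replicate 1 and 5.80 in replicate 2. Next was a 420 bp peak at chromosome 1, positions 101200563 to 101200982, 36.1 kb upstream of S1PR1, a receptor for sphingosine 1-phosphate, with folds of 5.99 and 5.73. The member upstream of STX16, which encodes a SNARE protein of Golgi transport, had folds of 5.78 and 5.58. The members' ranges ended at 6.28 in replicate 1 and 6.19 in replicate 2.

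The member upstream of MB, the gene for myoglobin, had folds of 5.39 in replicate 1 and 5.24 in replicate 2. DDX1, an RNA helicase gene, lay 99.6 kb from a member with folds of 6.28 and 5.04, the highest fold of any member in replicate 1. Near DEPTOR, which encodes an inhibitor of mTOR, the folds were 5.03 and 5.29. The member at 32.3 kb upstream of TFAP2A, which encodes a transcription factor of ectoderm and epithelia, had 4.85 and 5.70, and that upstream of BACH2, which encodes a bZIP repressor, had 4.77 and 5.91. Both were higher in replicate 2.

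The member near TNFRSF21, a death receptor gene, had folds of 5.26 in replicate 1 and 5.09 in replicate 2. That near IL22, a cytokine gene, had 5.27 and 5.07. The member 14.8 kb upstream of ANXA5, which encodes a calcium-dependent phospholipid-binding protein, had 5.47 and 4.97. The member 47.3 kb upstream of ITGB1, the integrin beta 1 subunit gene, had 5.09 and 5.05. The third quartile of members was 4.17 in replicate 1 and 4.25 in replicate 2, and the ranking itself fixes that these members lie high.

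Replicate support was compared with that of the other arm shared peaks at a fixed cut of −log10 q. Both replicates gave a −log10 q of at least 3 for 133 of 1099 members (12.1%, Wilson interval 10.3 to 14.2%) and for 25 of 419 peaks at gene ends (5.97%, 4.07 to 8.66%), beside 10.03% of all arm shared peaks. The odds ratio was 2.17, with an adjusted p of 0.00197 (Fisher's exact test, two-sided, Benjamini-Hochberg over 6 tests). At a cut of 5 the difference from gene ends was 0.706 percentage points and did not pass (adjusted p = 0.362, exact test). Peaks more than 100 kb from genes reached it in 59 of 682 cases (8.65%, adjusted p = 0.0341 by the same exact test). That difference was 3.10 percentage points, with an adjusted p of 0.111, when 1 peak per 10 kb cluster was kept, and 0.105 percentage points at a cut of 2 (adjusted p = 1.00, exact test). Peaks inside gene bodies reached it in 162 of 1580 cases (10.3%), and the difference of 1.85 percentage points did not pass (adjusted p = 0.159, exact test).

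Boundaries were compared by asking whether the member and a replicate peak covered 50% of each other in both replicates. This held for 273 members (24.8%, 22.4 to 27.48%), beside 22.04% of all arm shared peaks. It held for 18.6% of peaks at gene ends, 20.6% inside gene bodies and 22.9% more than 100 kb from genes. The differences from gene ends and from gene bodies passed (adjusted p = 0.0218 for both, Fisher's exact test). That from distant peaks, 1.97 percentage points, did not (adjusted p = 0.362, exact test). The difference from gene bodies was lost with 1 peak per cluster (adjusted p = 0.0661, exact test), and that from gene ends when 10 kb around gene ends was left out (1.75 percentage points, adjusted p = 0.480, exact test). Both depended on the share of overlap asked for. At 75% neither passed (2.36 and 1.47 percentage points from gene ends and gene bodies, adjusted p = 0.113 for both, exact test), and at 25% that from gene bodies did not (2.16 percentage points, adjusted p = 0.313, exact test).

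Median folds differed little between classes. In replicate 1 they were 3.87 for members, 3.71 at gene ends, 3.84 inside gene bodies and 3.85 more than 100 kb from genes. In replicate 2 they were 3.94, 3.81, 3.96 and 4.004 in the same order of classes. Gene ends were lowest in both replicates. The fold ranges of all classes overlapped widely.

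Members lay at a median of 29.4 kb from the nearest coding gene body, with quartiles of 13.8 and 53.9 kb. They numbered 1.64 per Mb (exact Poisson interval 1.55 to 1.75) over the 668 Mb of arm sequence that met the position rule, while shared peaks inside gene bodies numbered 1.44 per Mb (1.37 to 1.52). The density was 1.49 per Mb at 3 to 10 kb, 1.69 at 10 to 25 kb, 1.78 at 25 to 50 kb and 1.58 at 50 to 100 kb, with overlapping intervals. Within 25 kb it was 1.01 times that at 50 to 100 kb (exact interval 0.878 to 1.17). Available sequence was counted by midpoint, whereas a member's edges also had to clear 3 kb, so the density at 3 to 10 kb is understated. With that limit, no decline with distance was detectable in this range. All such intervals cover counting error only.

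Strand was known for the nearest gene of 843 members. Of these, 488 (57.9%, Wilson interval 54.5 to 61.2%) lay upstream of the gene, beside 54.4% of the available sequence. Density was 1.70 per Mb upstream (1.55 to 1.86) and 1.48 per Mb downstream (1.33 to 1.64), with intervals that overlap. Between 3 and 10 kb it was 1.59 per Mb upstream (1.27 to 1.96) and 1.20 downstream (0.906 to 1.55), again with overlap.

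**Figure D3:**
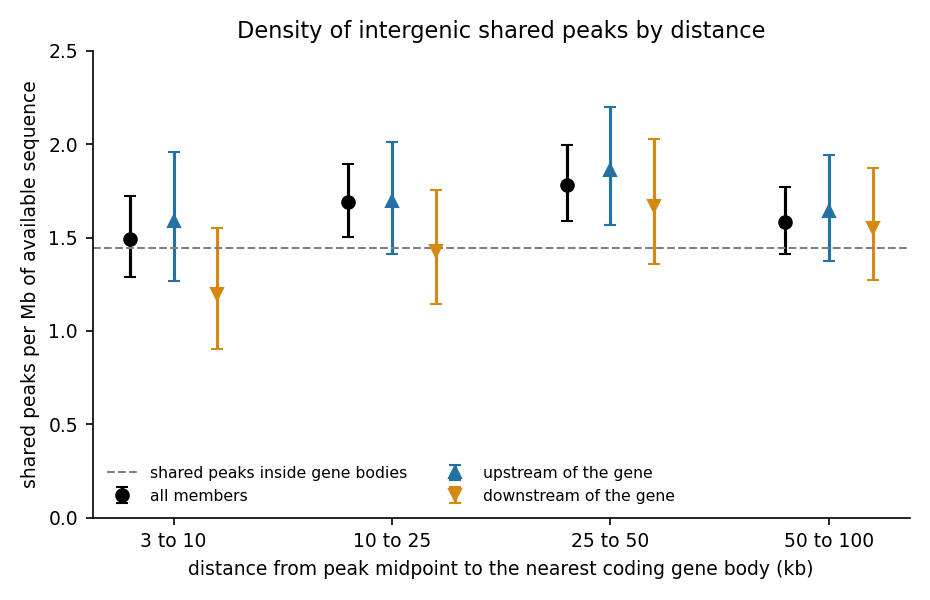
Members per Mb of available sequence (vertical axis) by distance from the peak midpoint to the nearest coding gene body in kb (horizontal axis), for all members and for those upstream and downstream of the gene. Bars are exact Poisson 95% intervals and the dashed line is the density of shared peaks inside gene bodies, 1.44 per Mb. All points lie between 1.20 and 1.86 per Mb.

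At each edge of the rule, 1 peak on either side is given. The member closest to the 100 kb limit lay 99.6 kb from S1PR1, with folds of 3.71 in replicate 1 and 4.05 in replicate 2, and the shared peak just outside it lay 100.2 kb from ARHGAP28, with 3.79 and 3.73. At the 3 kb margin, a member near CCN2 lay 3.02 kb from the gene end and had folds of 3.57 and 3.70. A shared peak near SBNO2 lay just outside the rule at 2.997 kb and had folds of 3.99 and 3.84.

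Density ranged widely between chromosomes. It was 2.91 members per Mb on chromosome 17 (Poisson interval 2.21 to 3.75), 2.82 on chromosome 5, 2.75 on chromosome 15 and 2.61 on chromosome 21. It was 0.331 per Mb on chromosome 16 (0.121 to 0.720), 0.428 on chromosome 13, 0.741 on chromosome 14 and 0.825 on chromosome 4. The upper bounds of these 4, and of chromosomes 1 and 3, lie below the overall 1.64 per Mb.

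Each replicate's own list, under the same position rule, gave a like order. In replicate 1 chromosomes 15, 21, 17 and 5 had 8.52, 6.30, 5.87 and 5.85 peaks per Mb, beside 4.63 over all chromosomes, and chromosome 16 had 1.05. In replicate 2 the same 4 chromosomes had 4.39, 3.33, 3.25 and 3.66, beside 2.17 over all, and chromosome 16 had 0.551. Median folds of members in the overlap list were 3.32, 3.40, 3.44 and 3.47 on the dense chromosomes 17, 21, 15 and 5, and 3.48, 3.71, 3.74 and 3.83 on the sparse chromosomes 4, 16, 13 and 14. On chromosome 3, also sparse, the median was 3.44. In replicate 1 the median was 3.92 on chromosome 5 and 3.88 on chromosome 4, so dense and sparse chromosomes overlapped.

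**Figure D4:**
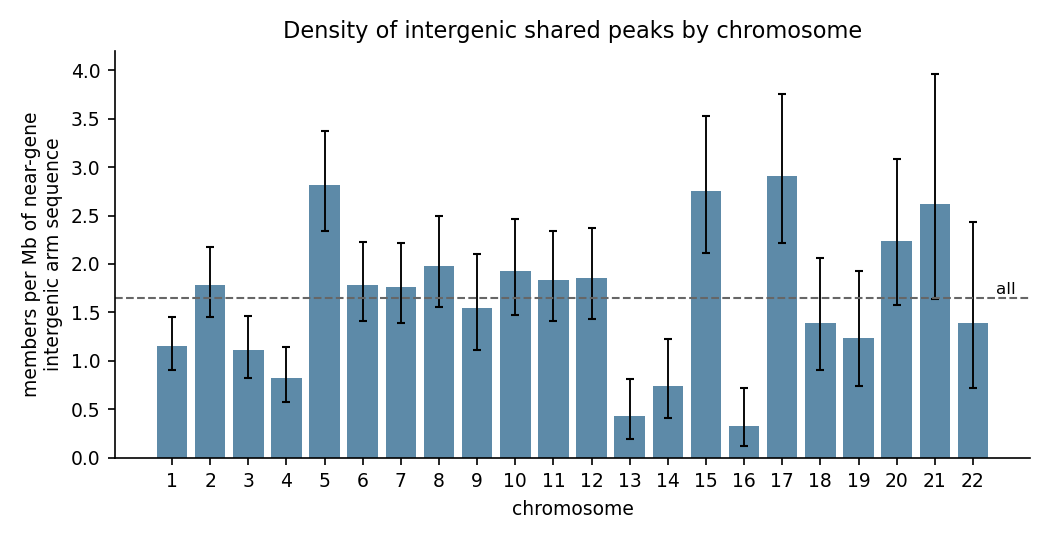
Members per Mb of near-gene intergenic arm sequence (vertical axis) on chromosomes 1 to 22 (horizontal axis), with exact Poisson 95% intervals. The dashed line marks 1.64 per Mb over all chromosomes. Chromosomes 5, 15 and 17 stand above it with intervals that exclude it, and chromosomes 1, 3, 4, 13, 14 and 16 below it.

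Most members had no other member close by. Joined at gaps of up to 10 kb, 836 of 1099 (76.1%) had no neighbouring member, 106 pairs formed, and 16 clusters of 3 or more held 51 members (4.64%). Only members were joined, so a shared peak of another class may lie beside a member counted as single. A run of 5 members lay 61.8 to 81.6 kb downstream of ASB7, which encodes a subunit of a ubiquitin ligase, at chromosome 15, positions 100712955 to 100733938. Their folds ran from 3.43 to 4.49 in replicate 1 and from 3.44 to 4.27 in replicate 2. A run of 4 lay upstream of CCDC200 on chromosome 17, with lower median folds of 2.997 in replicate 1 and 3.11 in replicate 2.

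Among the clusters of 3 was one upstream of SMAD3, which encodes a signal transducer of TGF-beta, at chromosome 15, positions 67041470 to 67051026, with median folds of 4.34 in replicate 1 and 3.88 in replicate 2. The cluster near PRSS23, a serine protease gene, had median folds of 4.62 and 4.21. That near TGFBI, a matrix protein gene named for its induction by TGF-beta, had 3.76 and 3.70. Further clusters of 3 lay near COPB1, CTLA4, SH3TC2, UACA and MAP3K7CL, with replicate 1 medians between 3.56 and 4.10. Not all of the 14 clusters of 3 are named.

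The members had 806 distinct nearest coding genes, 4.25% of the 18973 coding genes on chromosomes 1 to 22. Of these, 595 were nearest to 1 member and 57 to 3 or more. CCDC200 was nearest to 8 members, all upstream, whose folds in the overlap list ran from only 2.11 to 2.75, all below the members' median. Their −log10 q values ran from 3.34 to 10.1 in the overlap list, 7 of them above the members' median of 3.58. Those at chromosome 17, positions 43251664 to 43252181 and 43296202 to 43296765, had their midpoints inside annotated small nuclear RNA genes.

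SMAD3 was nearest to 5 members, all upstream at 15.8 to 41.0 kb, with folds of 3.70 to 4.73 in replicate 1 and 3.77 to 4.70 in replicate 2. All 5 lay inside an annotated lncRNA gene. DAB2, which encodes an endocytic adaptor, was nearest to 5 members at 15.7 to 94.2 kb upstream, with folds of 3.67 to 5.12 and 3.39 to 4.84. The strongest of them, at chromosome 5, positions 39498114 to 39499145, had 5.12 in replicate 1 and 4.50 in replicate 2. Those starting at positions 39516826 and 39517549 took their replicate 1 fold of 4.07 from the same replicate 1 peak. SH3TC2, whose product acts in endocytic recycling in Schwann cells, was nearest to 5 members, all downstream, with folds of 3.36 to 5.40 and 3.85 to 4.26.

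TNFRSF11B, the gene for the decoy receptor osteoprotegerin, was nearest to 5 members with folds of 3.34 to 4.01 in replicate 1 and 3.57 to 3.95 in replicate 2. AHR was nearest to 4 members, 3 downstream and 1 upstream, with folds of 3.41 to 4.58 and 3.65 to 4.42. CDC42EP3, CHD2 and DLG1 also had 4 each. Another 6 genes tied with them at 4 members, TFAP2A, DUSP1, SMURF2, MAP3K7CL, POTEB3 and LOC124904962.

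Lists of genes of known roles were read against the 4.25% of all coding genes. How often a gene was nearest depended on how much intergenic sequence lay nearest to it. The share was 1.10% for genes with up to 25 kb of such sequence, 6.09% for 25 to 50 kb, 10.2% for 50 to 100 kb and 14.1% beyond. The median over all coding genes was 13.5 kb, so a list of genes with wide surroundings is compared with the last bands. By their medians, the YAP/TEAD and the matrix list below fall beside 10.2%, and the stromal list beside 14.1%. The lists were chosen with earlier results of these data known, and how far that choice raised their shares was not tested. They are described by counts, with no test. The counts depend on the list of peaks, since replicate 1 alone makes 9.21% of all coding genes nearest to a peak and replicate 2 alone 5.02%.

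YAP and TEAD act together downstream of the Hippo pathway. Of 29 genes of this pathway and its known targets, 11 (37.9%) were nearest to at least 1 member, on a median of 59.0 kb of nearest sequence. The counts were 15 of 29 with the peaks of replicate 1 alone and 12 of 29 with those of replicate 2 alone. The member 11.7 kb downstream of YAP1, at chromosome 11, positions 102244824 to 102245432, had folds of 4.76 in replicate 1 and 5.30 in replicate 2. Among targets, CCN1, which encodes a secreted matrix-associated protein, was nearest to 2 members with folds of 3.89 to 4.29 and 3.999 to 4.19. ASAP1, an Arf GTPase-activating protein gene, was nearest to 2 with folds of 4.15 to 4.34 and 4.08 to 4.84. TGFB2, a TGF-beta ligand gene, was nearest to 2 with folds of 3.75 to 4.19 and 4.21 to 4.31. The others were F3, RBMS3, ANKRD1, NUAK2, NT5E, AMOTL2 and CCN2.

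Collagen and matrix genes numbered 9 of 24 (37.5%), on a median of 82.6 kb of nearest sequence. They numbered 15 with the peaks of replicate 1 alone and 11 with those of replicate 2 alone. TNC was nearest to 3 members upstream, with folds of 3.64 to 4.26 in replicate 1 and 3.62 to 4.70 in replicate 2. COL1A2, a type I collagen gene, lay 93.5 kb from a member with folds of 4.53 and 4.60, and FBN1, the fibrillin 1 gene, lay 35.8 kb from one with 4.13 and 4.29. COL5A1, a type V collagen gene, was nearest to 2 members with folds of 3.40 to 4.18 and 3.52 to 4.12. FN1, COL6A3, SPARC, COL1A1 and COL6A1 completed the list.

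TGF-beta and BMP genes numbered 7 of 25 (28%), on a median of 65.0 kb, among them the ligand gene TGFB2, the latent binding protein genes LTBP1 and LTBP2, the transducer SMAD3, the inhibitory SMAD6 and the ubiquitin ligase SMURF2. SMURF2 was nearest to 4 members upstream, with folds of 3.39 to 4.65 in replicate 1 and 3.66 to 4.41 in replicate 2. The member 7.48 kb upstream of LTBP2 had 4.49 and 4.68.

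Integrin and focal adhesion genes numbered 6 of 24 (25%), on a median of 36.1 kb. Besides ITGB1, ITGB6, which encodes an epithelial integrin subunit, was nearest to 3 members upstream with folds of 3.83 to 5.47 in replicate 1 and 3.71 to 4.79 in replicate 2. ITGA3, another integrin subunit gene, was nearest to 2 with folds of 3.34 to 4.48 and 3.61 to 4.94. PARVA, PTK2 and TNS3 were the others.

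Keratin and epithelial identity genes numbered 5 of 20 (25%), on a median of 23.9 kb. KRT80 lay 21.3 kb from a member with folds of 4.91 in replicate 1 and 4.17 in replicate 2. KRT18, a simple epithelial keratin gene, lay 18.9 kb from one with 4.64 and 4.10. Its partner keratin KRT8 lay 22.8 kb from one with 4.01 and 4.13. EHF and GRHL2, which encode epithelial transcription factors, made up the rest. Of 20 endometrial epithelial factor genes, 2 (10%) were nearest to a member, PAX8 and EMX2, on a median of 86.7 kb. That is close to the 10.2% of all coding genes with 50 to 100 kb of nearest sequence. The counts were 5 for replicate 1 alone and 2 for replicate 2 alone. The member 5.16 kb upstream of PAX8, a regulator of Müllerian duct development, had folds of 4.29 and 5.38. Of 24 cell junction genes, 1 was nearest to a member, CLDN4 (4.17%, on a median of 28.1 kb). The counts were 4 for replicate 1 alone and 3 for replicate 2 alone.

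Growth factor and receptor tyrosine kinase genes numbered 6 of 24 (25%, on a median of 89.3 kb), HGF, EPHA2, VEGFC, FGFR2, EGFR and PDGFC. Mesenchymal genes numbered 6 of 25 (24%, 71.0 kb), among them TNC, TPM1, FN1 and LOXL2, with 10 for replicate 1 alone and 6 for replicate 2 alone. Inflammatory and NF-kB genes numbered 4 of 25 (16%, 49.8 kb), NFKB1, TNFAIP3, CXCL8 and CSF2, with 11 for replicate 1 alone and 4 for replicate 2 alone. AP-1 factor genes numbered 2 of 14 (14.3%, 35.5 kb), JUN and BACH1. JUN, an AP-1 subunit gene, was nearest to 2 members with folds of 3.74 to 4.71 in replicate 1 and 3.62 to 4.10 in replicate 2. SWI/SNF subunit genes numbered 2 of 28 (7.14%, 9.55 kb), SMARCA2, the ATPase paralogue of SMARCA4, and BICRA.

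Lists of other cell types varied. Stromal fibroblast and decidual marker genes numbered 4 of 18 (22.2%, on a median of 117 kb), ALDH1A2, IGF1, COL1A1 and WT1, of which COL1A1 is also on the matrix list. They numbered 11 of 18 (61.1%) with the peaks of replicate 1 alone, and 5 of 18 (27.8%) with those of replicate 2 alone. Endothelial marker genes numbered 0 of 18 (46.99 kb), which allows a share of up to 16.7%, and neuronal genes 0 of 20 (111 kb), which allows up to 15%. Replicate 1 alone gave 1 gene for each of these lists and replicate 2 alone gave 0. Immune cell markers (IL7R), hepatocyte genes (APOB) and cytosolic ribosomal protein genes (RPS14) had 1 gene each, of 20, 20 and 26. These shares were 5%, 5% and 3.85%, on medians of 9.68, 28.7 and 1.47 kb. With replicate 1 alone the counts were 2, 1 and 2.

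**Figure D5:**
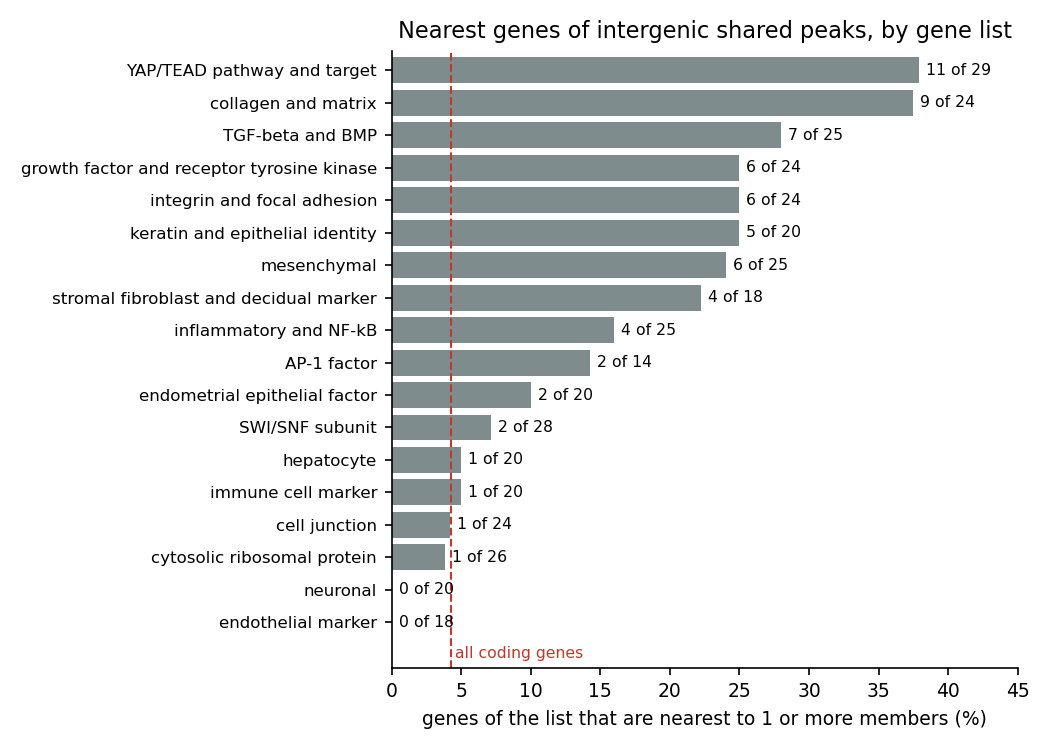
Share of each gene list (%, horizontal axis) that was the nearest coding gene of at least 1 member, with the counts beside the bars. The dashed line marks the 4.25% of all coding genes. The share was 10.2% among genes with 50 to 100 kb of nearest sequence, where the medians of the YAP/TEAD and matrix lists lie. Beyond 100 kb, where that of the stromal list lies, it was 14.1%. The lists were chosen with earlier results of these data known. For shared peaks, YAP/TEAD and matrix genes stood at 37.9% and 37.5%, and neuronal and endothelial genes at 0. In replicate 1 alone, matrix and stromal genes stood above YAP/TEAD genes, at 62.5% and 61.1% against 51.7%, and in replicate 2 alone matrix genes did, at 45.8% against 41.4%.

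Members with the highest −log10 q in both replicates lay on both sides of the members' median fold. Both replicates gave a −log10 q of at least 5 for 13 members (1.18%), beside 0.714% of all arm shared peaks, and these are named here after their values were seen. Fold and −log10 q of the overlap list had a Spearman correlation of 0.85 over all members, yet 6 of the 13 had folds below the members' median of 3.50. The member 30.5 kb upstream of LTBP1, 410 bp at chromosome 2, positions 32916216 to 32916625, had a fold of 3.16 and a −log10 q of 34.9, the highest of the set. Its −log10 q was 14.2 in replicate 1 and 18.9 in replicate 2.

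The others with low fold were nearest to TUBB8B (fold 2.37, −log10 q 19.01), HGSNAT (3.29 and 17.6), FRG2B (2.42 and 15.7), MAMDC2 (2.53 and 13.8) and CCDC200 (2.52 and 10.1). The 7 with high fold were nearest to DGCR6 (4.56 and 17.2), STX16 (5.20 and 14.02), PROS1 (4.25 and 11.6), CEP126 (5.41 and 10.4), S1PR1 (5.19 and 9.47), SLX9 (4.19 and 7.63) and SHANK2 (4.16 and 7.48). All values in these pairs are those of the overlap list. The members nearest to HGSNAT and PROS1 lay on chromosomes 8 and 3, where no range around the centromere was left out. Whether any of these sites lie in repeated sequence was not examined.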

How the data were processed

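BRG1 ChIP-seq of 12Z cells was read from 3 deposited broad-peak lists, 17399 peaks for replicate 1, 10157 for replicate 2 and 6343 for the overlap. The submitters' processing notes name GRCh38.p12 as the build and MACS2, Bowtie2, bedtools, SAMtools, Picard, cutadapt and Trim Galore as tools, without versions or settings. For every peak the authors deposited a fold, which is a ratio over background, with a p-value and a q-value on the −log10 scale. The lists hold no read counts, so depth is unknown, and intervals cover counting error only.

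Positions are printed as the authors' files give them, 1-based. Gene names, neighbourhoods and sequences come from RefSeq tables of GRCh38.p14, none of whose coordinates are printed. Of 20037 coding genes, 171 listed at scaffold or alternate-locus positions were left out, and strand was known for 15101 of the 18973 on chromosomes 1 to 22. A member's replicate value is that of the overlapping replicate peak (1 bp or more) of highest fold, so 1 replicate peak can serve more than 1 member. Nearest sequence of a gene is arm sequence 3 to 100 kb from its body and nearer to it than to any other coding gene. Classes were compared by a two-sided Fisher's exact test on shares, adjusted by Benjamini-Hochberg over 6 tests at a threshold of 0.05. Peaks, not cultures, are the units of these tests, and neighbouring peaks are not independent. The class assignment and the exact test were tested on simulated data.

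Genes named are those nearest to the 12 members of highest mean fold percentile, to the 10 largest clusters, to the most members (10 genes, ties in alphabetical order) and up to 4 genes per list. The 10 clusters leave out some of the 14 that tied at 3 members. Other names complete a short count, and 1 gene of a list is not reported here. The members and all 18 gene lists were chosen with earlier results of these data known. Motifs were to be searched at peak midpoints, which needs a genome; start windows were searched instead, a choice made after seeing the data. Analyses used Python 3.11.15, numpy 2.4.6, pandas 2.3.3, scipy 1.17.1 and matplotlib 3.10.9.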

Additional observations from a re-analysis of the deposited data

Results flagged for a closer look

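Chromosome X lay outside the set, which was limited to chromosomes 1 to 22. On it, 4 shared peaks met the same position rule. This is above the 3 that a count of 0 allows, which was the cut for flagging and not a test. No density was computed for chromosome X. Their nearest coding genes were SYTL5, ATXN3L, PNPLA4 and FAM9A, with folds of 3.81, 3.61, 3.36 and 3.15 in the overlap list. All 4 folds lay between the lowest and the highest of the members.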

How the results depend on the processing

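No paired analysis was possible because the series has 1 ChIP group. No class difference changed sign. The near-to-far density ratio crossed 1 with replicate 1 alone (0.9495). The non-coding share, above the 25.5% of available sequence in the set, lay below it among the peaks of highest −log10 q. These comprised only 13 members, beside 2 peaks at gene ends and 8 inside gene bodies, too few to show a change of direction. With those peaks only, whose −log10 q reached 5 in both replicates, members were 48.1% of arm shared peaks, the near-to-far density ratio was 1.26, the median fold 4.16, the median −log10 p 17.7 and the median width 518 bp. There were then 0 clusters of 3 or more, 13 nearest genes, 72.7% upstream and 23.1% in non-coding genes, and the overlap differences of 69.2 points from gene ends and 31.7 points from gene bodies did not pass (adjusted p = 0.609 for both, Fisher's exact test). The share with −log10 q of 3 or more was not compared under this setting, since every peak then meets it. With bodies within 50 kb, members were 21.03% of arm shared peaks and 28.3% lay in non-coding genes. With a 10 kb margin, members were 23.7%, clusters 10 and the overlap difference from gene ends 1.75 points (adjusted p = 0.480, exact test).

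Clusters numbered 9 when joined within 5 kb and 28 within 20 kb. At a −log10 q of 2 the difference from distant peaks was 0.105 points (adjusted p = 1.00, exact test). At 5, differences were 0.706 points from gene ends and 0.596 from distant peaks (adjusted p = 0.362 for both, exact test). At 25% overlap the difference from gene bodies was 2.16 points (adjusted p = 0.313, exact test). At 75% it was 1.47, and from gene ends 2.36 (adjusted p = 0.113 for both, exact test). With 1 peak per cluster, chosen after seeing the data, the −log10 q difference from distant peaks was 3.10 points (adjusted p = 0.111) and the overlap difference from gene bodies 3.82 (adjusted p = 0.0661, exact tests).

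The rule applied to the list of 1 replicate alone gave median folds of 3.68 to 3.88, median −log10 p of 5.27 to 5.50, median widths of 319 to 374 bp, 46 to 157 clusters, 952 to 1748 nearest genes and shares of 27.1 to 28.4%. It gave density ratios of 0.9495 to 1.00, 56.6 to 57.7% upstream and 30.2 to 31.4% in non-coding genes. The higher values of clusters and genes come from replicate 1, the longer list. The cause of the other changes was not tested. Keeping the genes at scaffold positions gave a share of 29.05%, and leaving out chromosomes 5, 15, 17 and 21 gave a density ratio of 1.05 and 56.9% upstream, both chosen after seeing the data. Unknown depth limits what can be said of peaks absent from a list.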
